A study of Mus musculus with 42 samples.

Results

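Immunity-related GTPases (IRGs) are large, interferon-inducible GTP-binding proteins. The 7 IRG genes described here were taken by symbol from the deposited gene table: Irgm1, Irgm2, Igtp, Iigp1, Tgtp1, Tgtp2 and Ifi47. They are 7 of 47729 genes in that table. Tests covered the 16613 genes that reached 10 scaled reads in 3 or more libraries, and 7 of the 7 members were among them.

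In mice, interferon gamma binds a receptor of IFNGR1 and IFNGR2 chains, the kinases JAK1 and JAK2 pass the signal on, and factors such as IRF1 switch on IRG genes. Regulatory IRGs (Irgm1, Irgm2 and Igtp, also called Irgm3) sit on membranes of the host cell and hold the effector IRGs inactive there. Effector IRGs (Iigp1 or Irga6, Tgtp1 and Tgtp2 or Irgb6, and Ifi47 or Irgd) load onto vacuoles that hold intracellular pathogens and disrupt them, a step that the LC3 conjugation machinery directs.

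RNA was sequenced from tumours of Pan02, a mouse pancreatic adenocarcinoma line, grown under the skin of C57BL/6 mice. The animals' age, sex and any genetic change are not given in the labels. Mice received BXCL701 (talabostat), an oral inhibitor of fibroblast activation protein and of its relatives DPP4, DPP8 and DPP9, at 20 ug per mouse daily, or vehicle, which the labels' protocols name as PBS. Each of the 42 libraries came from its own animal, in 14 groups of 3 mice. The vehicle groups are 0 h of day 1, of day 7 and of day 14. The BXCL701 groups are 3 hours of day 1 (1, 8 and 16 h) and 4 hours each of days 7 and 14, which add 0 h. Pooled comparisons of a day gave each of its hours equal weight, and they hold treatment and hour together, because vehicle tumours were of 0 h alone. Library totals were 19133150 to 26633380 scaled reads, and the true read depth is unknown. The keratins of the tumour line were abundant, with medians over the 42 tumours of 592 FPKM for Krt8 and 447 FPKM for Krt18, while Epcam had a median of 0.996 FPKM.

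Regulators and effectors differ in the first GTP-binding loop, and this stretch of the coding sequence is shown because it divides the 7 genes into both classes. A script found the loop in the longest open reading frame of each GENCODE M21 transcript, and its seventh codon is in capitals. It spans coding bases 247 to 270 of Irgm1 and Irgm2, 271 to 294 of Igtp, 187 to 210 of Tgtp1 and Tgtp2, and 241 to 264 of Ifi47. The ATG codon stands for methionine and the AAG codon for lysine.
Irgm1, Irgm2 and Igtp: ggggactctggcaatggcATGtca
Tgtp1 and Tgtp2: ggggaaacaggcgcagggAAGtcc
Ifi47: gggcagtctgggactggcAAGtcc
Iigp1 also had a lysine codon there. Igtp, Irgm1 and Irgm2 were identical over these 24 bases, although their whole reading frames shared 67.3% to 73.1% of aligned bases. Tgtp1 and Tgtp2 shared 1244 of 1248 bases (99.7%), so reads of these neighbours could be divided between them in the counting and their separate values are uncertain.

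On GRCm38, with GENCODE M21 gene models, 6 of the 7 genes lay on chromosome 11. Irgm1 was at chr11:48861968-48871683 on the minus strand, Tgtp1 at chr11:48985327-48994172 (minus), Tgtp2 at chr11:49057194-49064206 (minus) and Ifi47 at chr11:49076587-49096974 (plus). Igtp at chr11:58199556-58207591 and Irgm2 at chr11:58199618-58222782 overlapped on the plus strand in these models. The RefSeq promoter window of Irgm2 used below, chr11:58214727-58215026, lies past the end of that Igtp model, so the annotations differ on its start. Tgtp1 also overlapped Gm12185, another IRG-like gene, on its own strand. Values of overlapping genes are uncertain where reads could be given to either.

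RefSeq promoter windows of GRCm38.p6, 250 bases before to 50 bases after the start site, were matched for 6 of the 7 members, without Iigp1. The windows of Irgm1 (chr11:48871371-48871670), Tgtp1 (chr11:48992197-48992496) and Irgm2 lie inside the GENCODE models of these genes. The searched windows of RefSeq starts were therefore referred to another start than that of GENCODE for these 3 genes. They were searched as given. All windows were searched for TTCNNNGAA, the gamma-activated site (GAS), which reads the same on both strands. They were also searched for GAAA NN GAAA (without the spaces) on either strand, the core of the interferon-stimulated response element (ISRE) that IRF proteins bind. Of 32851 windows, 8.3% held the GAS letters, 3.44% the ISRE letters and 0.454% held both. Igtp, Irgm2, Tgtp1 and Tgtp2 held both, with the ISRE starting 11 bases after the start of the GAS, so the matches did not overlap. That spacing was noticed in these promoters, and it occurred in 5 of all windows (0.0152%), the fifth being that of Gm12185. Irgm1 held 2 overlapping ISRE matches and no GAS match in the window, and Ifi47 held neither. The stretches with the matches in capitals are shown, each on its gene's strand, because 4 of these 6 genes share them.
Igtp, chr11:58199491-58199551, plus strand: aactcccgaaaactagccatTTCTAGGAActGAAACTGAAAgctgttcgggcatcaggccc
Irgm2, chr11:58214882-58214942, plus strand: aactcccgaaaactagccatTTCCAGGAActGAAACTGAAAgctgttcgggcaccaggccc
Tgtp1, chr11:48992294-48992354, minus strand: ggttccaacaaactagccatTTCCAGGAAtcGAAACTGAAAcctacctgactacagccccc
Tgtp2, chr11:49064253-49064313, minus strand: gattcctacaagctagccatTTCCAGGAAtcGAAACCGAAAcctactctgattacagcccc
Irgm1, chr11:48871428-48871457, minus strand: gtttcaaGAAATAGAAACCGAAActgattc
These matches are letters only, and factor binding was not measured.

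All 7 genes were well expressed. Per length, Igtp was the most abundant, with a median of 130.4 FPKM over the 42 tumours, then Irgm1 at 92.0 FPKM, Ifi47 at 79.1 FPKM, Tgtp2 at 69.5 FPKM, Iigp1 at 63.8 FPKM, Irgm2 at 37.2 FPKM and Tgtp1 at 30.3 FPKM. Regulators and effectors were therefore mixed in this order. From here on, levels are log2(value + 1) of the deposited scaled reads, which compare tumours for a gene but not genes with each other.

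Across the 14 groups, the highest mean of each of the 7 members was that of BXCL701 on day 7 at 16 h. Vehicle on day 14 had the lowest mean for 6 of the 7, and for Ifi47 it was second lowest (10.54), after BXCL701 on day 1 at 8 h (10.43). For Igtp the order of group means was BXCL701 day 7 16 h (13.04), day 7 8 h (12.97), day 7 1 h (12.89), day 14 16 h (12.86), day 1 1 h (12.63), day 14 0 h (12.53), day 7 0 h (12.31), vehicle day 1 (12.22), BXCL701 day 14 8 h (12.01), day 14 1 h (11.62), vehicle day 7 (11.61), BXCL701 day 1 16 h (11.26), day 1 8 h (10.82) and vehicle day 14 (10.74). The SDs of these groups were 0.21 to 1.68 (n = 3 each). Of the 13 steps between neighbours in the order, 13 were smaller than the larger of the 2 SDs for Irgm1, Igtp, Iigp1, Tgtp1, Tgtp2 and Ifi47. For Irgm2 it was 12 of 13, the exception being the step of 0.52 from BXCL701 day 1 8 h down to vehicle day 14.

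**Figure D1:**
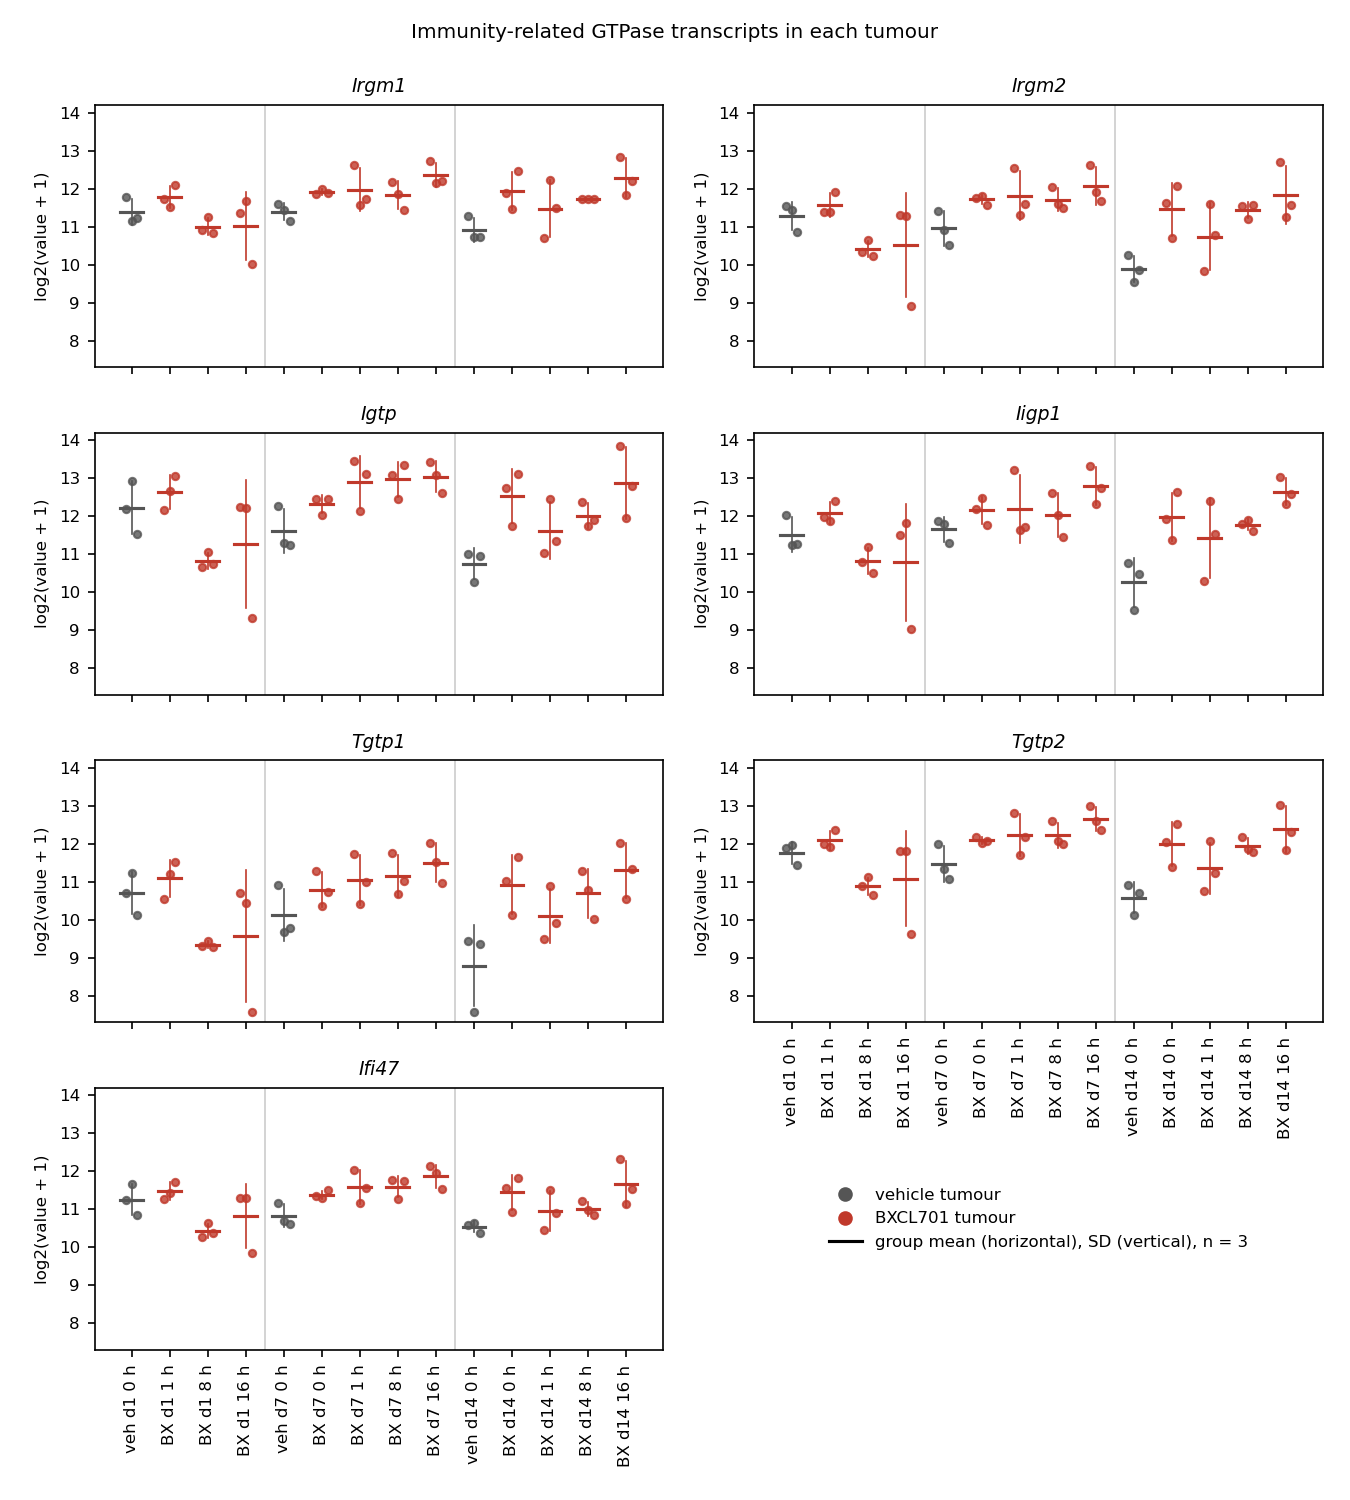
Level of each IRG transcript, log2(value + 1) of scaled reads, in each of 42 tumours by treatment (veh, vehicle; BX, BXCL701), day (d) and hour. Points are tumours, horizontal bars are group means and vertical bars SDs (n = 3). The vehicle tumours of day 14 sit low in every panel, as for Igtp at 10.28 to 10.99, and the lowest BXCL701 tumour in each panel is replicate 3 of day 1 at 16 h.

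On day 14, 5 of the 7 IRG transcripts were higher in BXCL701 tumours (12 tumours over 4 hours) than in the 3 vehicle tumours: the regulators Irgm2 and Igtp and the effectors Iigp1, Tgtp1 and Tgtp2. Their rises were 2.52-fold to 3.90-fold. Irgm1 and Ifi47 lay higher by 1.93-fold and 1.66-fold and did not pass. Over all 16613 tested genes 2.26% passed as higher, 1.03% as lower and 3.29% in either direction. All 7 members had an unadjusted p under 0.05, against 9.67% of tested genes in that direction. The median log2 difference was 1.48 over the 7 members and -0.01 over all tested genes. Adjusted p-values here and below are those of limma with Benjamini-Hochberg adjustment over all tested genes, with a threshold of 0.05.

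Among the regulators, Irgm2 was 10.25, 9.55 and 9.86 in the vehicle tumours of day 14, and 9.83 to 12.70 with a median of 11.55 under BXCL701. All but 1 of the 12 BXCL701 tumours lay above every vehicle tumour. The log2 difference was 1.48 ± 0.37 (SE, adjusted p = 0.0243, limma). Igtp, whose protein resides at the endoplasmic reticulum, was 10.99, 10.28 and 10.96 in vehicle and 11.03 to 13.84 with a median of 12.17 under BXCL701. The Igtp groups did not overlap, by a margin of 11.03 over 10.99. Its difference was 1.51 ± 0.44 (SE, adjusted p = 0.0494, limma), and this call was lost in 19 of 27 alternative analyses, against 5 or 6 of 27 for the other called members. Irgm1, the regulator tied to clearance of mycobacteria, was 11.27, 10.71 and 10.73 in vehicle and 10.71 to 12.84 with a median of 11.78 under BXCL701. With 11 of 12 BXCL701 tumours above the highest vehicle tumour, its difference of 0.95 ± 0.28 missed the threshold (SE, adjusted p = 0.0528, limma).

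Among the effectors, Iigp1, the member outside chromosome 11 (chr18:60376027-60392634, plus strand), was 10.77, 9.52 and 10.47 in vehicle and 10.31 to 13.03 with a median of 11.91 under BXCL701. It lay above every vehicle tumour in 11 of 12 BXCL701 tumours, and it rose by 1.70 ± 0.42 (SE, adjusted p = 0.0216, limma). Tgtp1 had the largest difference of the 7. It was 9.44, 7.57 and 9.37 in vehicle and 9.50 to 12.01 with a median of 10.84 under BXCL701, without overlap, and rose by 1.96 ± 0.48 (SE, adjusted p = 0.0202, limma). Vehicle replicate 2 stood furthest apart for this gene, and its mean over the 7 members was also lowest, at 9.77 against 10.61 and 10.35. For Ifi47 it was the highest of the 3. Tgtp2, the near-copy of Tgtp1, was 10.92, 10.13 and 10.70 in vehicle and 10.75 to 13.02 with a median of 11.96 under BXCL701. It rose by 1.33 ± 0.33 (SE, adjusted p = 0.0204, limma). Ifi47 was tightest in vehicle, at 10.60, 10.64 and 10.37, against 10.45 to 12.32 with a median of 11.18 under BXCL701. Its difference was 0.73 ± 0.25 (SE, adjusted p = 0.103, limma).

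The single BXCL701 tumour that overlapped vehicle was the same for Irgm1, Irgm2, Iigp1, Tgtp2 and Ifi47, replicate 1 at 1 h. It also held the highest mean log2 levels of the skeletal muscle (14.61), macrophage (12.28) and adipocyte (11.56) lists of all 42 tumours. With muscle, keratinocyte and adipocyte levels as covariates the 7 differences were 0.60 to 1.77 and 4 of 7 passed, the call on Igtp being lost (limma, adjusted p = 0.0793). Non-overlapping groups, as for Igtp and Tgtp1, were found in 0.843% of tested genes.

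**Figure D2:**
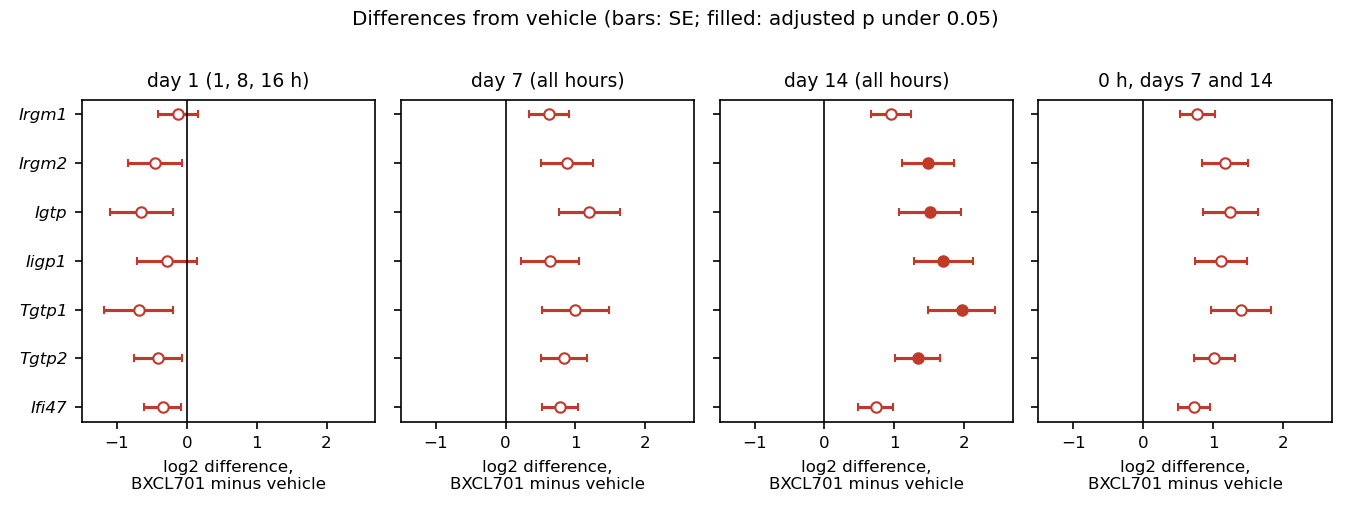
Log2 difference of each IRG transcript between BXCL701 and vehicle tumours on days 1, 7 and 14 and at 0 h of days 7 and 14 combined, with SE bars, where filled points have an adjusted p under 0.05. The 7 values lie at -0.69 to -0.13 on day 1, 0.62 to 1.20 on day 7 and 0.73 to 1.96 on day 14, and 5 points are filled, on day 14.

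The day 14 calls depended on the vehicle tumours of that day. Without vehicle replicate 2, 0 of the 7 passed (limma, differences 0.79 to 1.35, adjusted p = 0.492 to 0.622) and 1 gene of all tested did. Without vehicle replicate 1, 3 of the 7 passed, Iigp1, Tgtp1 and Tgtp2, and 217 genes of all tested did. Without replicate 3 it was 5 of 7, and 2021 genes in all. With the day 14 libraries fitted alone the differences were 0.73 to 1.96 as before and 0 of 7 passed (adjusted p = 0.102 to 0.225, with 1 gene in all). Against the vehicle tumours of days 1 and 7 in place of day 14, a control chosen after seeing the data, the 7 differences were 0.23 to 0.46, and 0 passed (adjusted p = 0.679 to 0.977).

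**Figure D3:**
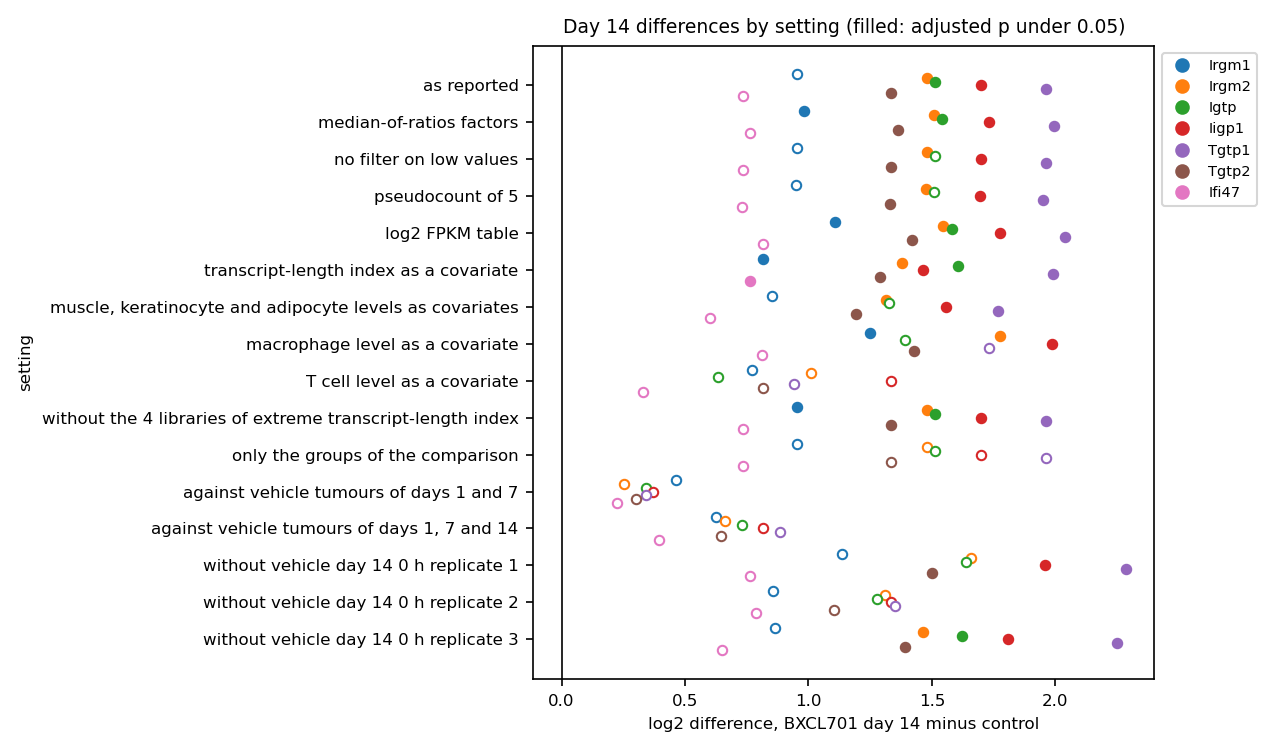
Log2 difference of the 7 IRG transcripts between BXCL701 tumours of day 14 and their control under each setting of the analysis, where filled points have an adjusted p under 0.05. All points lie above 0. They draw together at 0.23 to 0.46 with vehicle tumours of days 1 and 7 as the control, and no point is filled without vehicle replicate 2 of day 14.

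Markers of immune cells were compared in the same tumours. On day 14, 8 of 8 markers lay higher under BXCL701 for each of T cells, NK cells, macrophages and neutrophils, and 3 of 5 for B cells. Of all tested genes 2.26% passed as higher in this comparison. Of the T cell markers 2 passed, Cd8a and Cd8b1. The summed T cell markers were 623 to 1696 scaled reads under BXCL701 and 322 to 1143 in vehicle. Of 8 NK cell markers 2 passed, Gzma and Prf1, with sums of 297 to 684 against 162 to 351 scaled reads. Of 8 macrophage markers 2 passed, Adgre1 and Mertk, with sums of 36107 to 78446 against 30820 to 50873. Of 8 neutrophil markers 5 passed, with sums of 2093 to 6050 against 1685 to 2196, and Ngp and Camp were listed at 0 in some of the 42 tumours. Of 5 B cell markers 0 passed, with sums of 52.0 to 427 against 81.3 to 378. No T cell, NK cell or macrophage marker was at 0 in any tumour. The NK cell markers Gzma, Ncr1 and Klrb1c were still near the floor, with lowest values of 0.677, 0.692 and 1.2 scaled reads. Vehicle replicate 2 of day 14 had the lowest mean log2 level of the 42 tumours for the T cell (5.23), NK cell (3.69) and macrophage (10.86) lists. With the mean T cell level as a covariate, chosen after seeing the data, the 7 differences were 0.33 to 1.33, 0 of 7 passed (limma, adjusted p = 0.154 to 0.465) and 8 genes of all tested passed. With the macrophage level as a covariate the 7 differences were 0.81 to 1.99 and 4 of 7 passed, with 1698 genes of all tested. Irgm1 was gained (limma, adjusted p = 0.0284), and Igtp and Tgtp1 were lost (adjusted p = 0.0862 and 0.0588). In bulk RNA, fewer cells of a type and less RNA per cell cannot be told apart.

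In vehicle tumours themselves, all 7 members lay lower on day 14 than on day 1, by 0.49 (Irgm1) to 1.90 (Tgtp1) on the log2 scale. In FPKM, Tgtp1 was 29.8 ± 9.12 on day 1, 23.2 ± 10.5 on day 7 and 9.10 ± 5.23 on day 14 (SD, n = 3 each). Igtp was 129 ± 52.7, 90.8 ± 36.5 and 45.4 ± 13.5 FPKM (SD, n = 3 each). Of the 7, 0 passed for day 14 against day 1 (limma, adjusted p = 0.201 to 0.58) and 6 had an unadjusted p under 0.05, against 6.49% of tested genes. Over all genes 0.0602% passed. Against day 7, all 7 again lay lower, by 0.30 to 1.40, and 0 passed with 4 at an unadjusted p under 0.05, against 6.73% of tested genes. Between days 1 and 7 of vehicle, 5 of the 7 lay lower and 2 higher, and 0 had an unadjusted p under 0.05. These comparisons use the same day 14 vehicle tumours as the comparison with BXCL701.

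On day 7, all 7 transcripts lay higher under BXCL701, by 0.62 (Irgm1) to 1.20 (Igtp) on the log2 scale. None of the 7 passed (limma, adjusted p = 0.462 to 0.505), 6 had an unadjusted p under 0.05 (5.75% of tested genes), and 1 gene of all tested passed (0.00602%). Ifi47 had the smallest p of the 7, at 0.78 ± 0.25 (SE, adjusted p = 0.462, limma). On day 1 all 7 differences were below 0, from -0.13 for Irgm1 to -0.69 for Tgtp1, with 0 passing among the 7 or among all genes and 0 of the 7 at an unadjusted p under 0.05 (limma, adjusted p = 0.906 to 0.94).

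Hour by hour on day 7, the members lay higher by 0.50 (Iigp1) to 0.76 (Irgm2) at 0 h, 0.54 (Iigp1) to 1.28 (Igtp) at 1 h, 0.38 (Iigp1) to 1.36 (Igtp) at 8 h and 0.96 (Irgm1) to 1.44 (Igtp) at 16 h. Igtp thus had the largest value at 1, 8 and 16 h and Iigp1 the smallest at 0, 1 and 8 h. None of the 7 passed at any of these hours (limma, adjusted p = 0.109 to 1). At 0, 1, 8 and 16 h, 0, 2, 2 and 7 of them had an unadjusted p under 0.05, against 3.85%, 16.2% and 3.02% of tested genes at 1, 8 and 16 h, and 0%, 0%, 0.301% and 0% of all genes passed. The tumours of day 7 at 0 h did not overlap vehicle for 4 of the 7 (Irgm1, Irgm2, Tgtp2 and Ifi47), which 3.36% of tested genes showed. These 4 comparisons share the 3 vehicle tumours of day 7.

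By hour on day 1, the 7 values lay above vehicle at 1 h (median 0.39) and below it at 8 h and 16 h (medians -0.86 and -0.73), and the change between hours was not tested. At 8 h, Igtp was 10.66, 11.06 and 10.75, against 12.20, 12.93 and 11.53 in vehicle, so the groups did not overlap. That difference was -1.40 ± 0.55 (SE, adjusted p = 0.279, limma). The same held for 6 of the 7 members, with Irgm1 as the exception, and for 17.3% of tested genes. At 8 h, 4 of the 7 had an unadjusted p under 0.05 (10.9% of tested genes) and 0 passed. At 16 h, where 0.012% of all genes passed and 0 of the 7, replicate 3 stood apart: Igtp was 9.32 against 12.26 and 12.21 in the other tumours. The members had their lowest values of all 42 tumours in that library, except Tgtp1, which was 7.58 there and 7.57 in vehicle replicate 2 of day 14. Its mean T cell level was 6.17 against 8.08 and 6.83 in its group, its NK cell level 4.20 against 5.87 and 5.12, and its macrophage level 11.80 against 11.99 and 11.72. Its skeletal muscle level was 10.48 against 8.11 and 6.46, its keratinocyte level 7.20 against 4.27 and 4.32, and its adipocyte level 6.76 against 8.51 and 8.47. With the macrophage or the T cell level as a covariate, as without, 0 of 7 passed at 16 h. A count already at 0 could not fall, and whether cell content accounts for the low values of replicate 3 was not tested.

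At 0 h, the hour with vehicle tumours, days 7 and 14 together gave differences of 0.73 (Ifi47) to 1.40 (Tgtp1). All 7 had an unadjusted p under 0.05 (6.88% of tested genes) and 0 passed (limma, adjusted p = 0.0973 for Irgm2 to 0.18 for Iigp1), while 0.512% of all genes passed. Igtp was 12.44, 12.04 and 12.45 under BXCL701 on day 7 and 12.75, 11.73 and 13.12 on day 14, against 12.28, 11.30 and 11.24 and then 10.99, 10.28 and 10.96 in vehicle. T cell marker sums were 1066 to 1696 scaled reads under BXCL701 and 322 to 1182 in vehicle in this comparison, and 0 of 8 T cell markers passed.

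Taken hour by hour on day 14, the members lay higher at 16 h by 1.13 (Ifi47) to 2.50 (Tgtp1), at 0 h by 0.91 to 2.13, at 8 h by 0.48 to 1.90 and at 1 h by 0.42 to 1.31. At both 0 h and 16 h the BXCL701 and vehicle tumours did not overlap for any of the 7, a pattern that 6.69% of tested genes had at 0 h and 5.84% at 16 h. None of the 7 passed at any single hour (limma, adjusted p = 0.0549 to 0.593), with 7, 2, 6 and 7 of them at an unadjusted p under 0.05 at 0, 1, 8 and 16 h. The share of tested genes with such a p was 8.2%, 7.36%, 7.38% and 6.74%. Over all genes 0.783% passed at 0 h, 0.789% at 1 h, 1.25% at 8 h and 0.0722% at 16 h. The 4 comparisons share the 3 vehicle tumours. Within BXCL701 tumours of days 7 and 14, the 16 h tumours lay above those of 0 h by a median of 0.48 over the 7 members and 0 passed (limma, adjusted p = 1, with 0 at an unadjusted p under 0.05 and 0.00602% of all genes passing). The 1 h and 8 h tumours differed from 0 h by medians of -0.24 and -0.02, with 0 of 7 at an unadjusted p under 0.05, and 0.012% and 0.132% of all genes passed.

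Between days under BXCL701, at 1, 8 and 16 h, all 7 members lay higher on day 7 than on day 1, by 0.78 (Ifi47 and Irgm1) to 1.39 (Igtp). Each had an unadjusted p under 0.05 (7.55% of tested genes) and 0 passed (limma, adjusted p = 0.0592 to 0.0952), against 0.12% of all genes. Leaving out each library in turn kept 0 in 15 of 18 cases, among them BXCL701 day 1 16 h replicate 3. The count was 7 without replicate 1 of that group, 2 without its replicate 2 and 3 without BXCL701 day 7 16 h replicate 3. For day 14 the median was 0.56 over day 1 at those hours and -0.37 against day 7 over all 4 hours, and 0 of 7 passed in either (limma, with 3 and 1 of the 7 at an unadjusted p under 0.05, against 7.84% and 2.13% of tested genes). Over all genes 1.27% and 0.012% passed. Whether the difference from vehicle changed between days was tested directly. The day 14 difference exceeded that of day 1, at the shared hours, by 1.02 (Ifi47) to 2.59 (Tgtp1), and 0 of 7 passed (limma, adjusted p = 0.414 to 0.671, with 7 at an unadjusted p under 0.05, against 3.27% of tested genes, and 0 of all genes passing). Between day 14 and day 7 it differed by -0.04 to 1.06, and 0 of 7 passed (limma, adjusted p = 0.386 to 0.969, with 0 at an unadjusted p under 0.05).

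The 7 transcripts varied together from tumour to tumour. Over the 42 tumours the 21 pairs of members had Pearson correlations of 0.847 (Iigp1 with Ifi47) to 0.985. After each group's mean was removed they were 0.733 to 0.971, so tumours of the same group differed in step as well. Each regulator was most like an effector: Irgm1 like Iigp1 (0.964), Irgm2 like Tgtp2 (0.985) and Igtp like Ifi47 (0.971). The copies Tgtp1 and Tgtp2 had 0.968, and the overlapping Igtp and Irgm2 had 0.94. These points share libraries and tumour composition. Spread differed more than direction: the SD over 42 tumours was 1.01 for Tgtp1, 0.97 for Igtp, 0.90 for Iigp1, 0.80 for Irgm2, 0.74 for Tgtp2, 0.58 for Irgm1 and 0.55 for Ifi47.

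Among the 10 genes other than the 7 members whose levels were most like the mean of the members over 42 tumours were Gbp6 (Pearson r = 0.966, Spearman rho = 0.938), Gm12250, the gene of the effector Irgb10 (0.965 and 0.953), Gbp4 (0.962 and 0.937), Gm12185 (0.958 and 0.91), Gbp2 (0.957 and 0.943), Gbp3 (0.955 and 0.918), Gm4841 (0.93 and 0.898), Parp9 (0.927 and 0.901) and Cxcl10 (0.915 and 0.868). Within groups, r was 0.869 to 0.951 for these genes. The guanylate-binding proteins (GBPs) are the other interferon-inducible GTPase family that acts at pathogen vacuoles, and Cxcl10 is a chemokine that draws T cells. Gm12250, Gm12185 and Gm4841 themselves resemble IRGs. Gm12250 rose on day 14 by 1.69 (adjusted p = 0.0157, limma). The symbol Gbp6 stands for 2 rows of the table, and the row meant here is ENSMUSG00000104713.

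Calls of other genes on day 14, here and below, use the same 3 vehicle tumours of that day. Without vehicle replicate 2, 1 gene of all tested passed (limma). In the pathway above the IRGs, the ligand Ifng was low, at 3.30, 3.46 and 2.92 in vehicle of day 14. Under BXCL701 on day 14 it was 4.28, 4.13 and 5.31 at 0 h, 2.08, 3.93 and 3.51 at 1 h, 4.26, 4.45 and 3.91 at 8 h, and 5.53, 3.61 and 5.49 at 16 h. Its pooled difference on day 14 was 0.98 ± 0.55 (SE, adjusted p = 0.371, limma). Over 42 tumours, which share libraries and cell makeup, its level had r = 0.867 with the mean of the members, while the receptor chains Ifngr1 (0.281) and Ifngr2 (0.337) and the kinases Jak1 (-0.098) and Jak2 (0.134) had low values. Ifngr1 rose on day 14 by 0.53 ± 0.14 (SE, adjusted p = 0.0272, limma) and Ifngr2 stood at -0.01 ± 0.11 (adjusted p = 0.985). Jak1 stood at 0.17 ± 0.16 (adjusted p = 0.661, limma) and Jak2 at 0.27 ± 0.25 (adjusted p = 0.65).

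Irf8, a myeloid interferon regulatory factor, rose by 0.87 ± 0.24 (SE, adjusted p = 0.0353, limma), and Irf1 stood at 0.49 ± 0.26 (adjusted p = 0.326). Of 7 tested genes of type I interferon signalling, 3 rose, against 2.26% of all tested genes, with a median of 0.67. They were Stat2 by 0.99, Tyk2 by 0.73 and Irf9 by 0.67 (adjusted p = 0.0147, 0.0362 and 0.0271, limma). Ifng was not alone in a high correlation with the mean of the members over the 42 tumours. There r was 0.849 for Irf1, 0.683 for Irf8, 0.83 for both Stat2 and Irf9, and 0.313 for Tyk2. Ifnb1, the interferon beta gene, had a median of 0 scaled reads over the 42 tumours and was not tested.

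**Figure D4:**
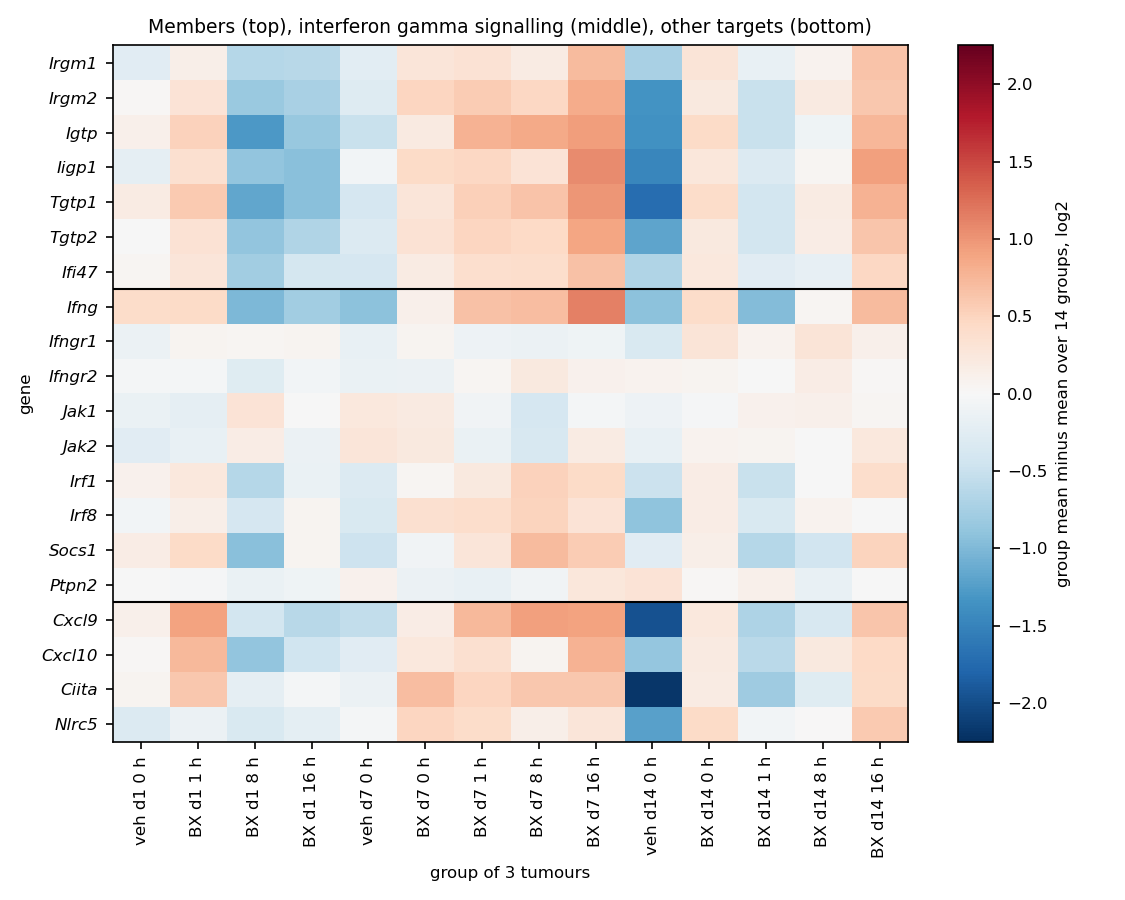
Mean log2 level of the 7 IRG transcripts, genes of interferon gamma signalling and 4 other interferon gamma targets in each group of 3 tumours, as the difference from the gene's mean over 14 groups (veh, vehicle; BX, BXCL701). Columns of vehicle day 14 and of BXCL701 day 1 at 8 h are blue for the IRGs, and rows of Ifngr1, Ifngr2, Jak1 and Jak2 stay pale. Pale marks small differences in level and not correlation, which for these genes with the members was -0.098 to 0.337.

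Below the pathway, some relatives of the IRGs and other targets rose on day 14, which means higher than in vehicle of that day. The vehicle level itself was lowest then: the mean over the GBP list was 8.27, 8.05 and 6.85 on days 1, 7 and 14. Under BXCL701 on day 14 the group means of that list were 8.36 to 9.57. Of 11 GBP genes 7 rose, with a median of 2.12, led by Gbp11 at 2.87 ± 0.66 (SE, adjusted p = 0.0152, limma), Gbp10 at 2.78 ± 0.61 (adjusted p = 0.0121) and Gbp8 at 2.33 ± 0.43 (adjusted p = 0.00419). Gbp2b, Gbp4, Gbp2 and Gbp3 rose by 2.28, 2.12, 1.46 and 1.30. Of both Gbp6 rows the list holds ENSMUSG00000079362, at 3.10 ± 1.42 (adjusted p = 0.241, limma), and the count leaves out ENSMUSG00000104713, which rose by 1.62 (adjusted p = 0.0196). Gbp genes are close copies, so values of single members are uncertain. Of 8 tested genes in a list of other IRG-like genes, which does not hold Gm12250, 3 rose: Gm12185 by 1.48 ± 0.39 (adjusted p = 0.0312, limma), Gm5431 by 1.16 ± 0.30 (adjusted p = 0.0289) and Irgq, a distant relative that is not known as interferon-inducible, by 0.35 ± 0.09 (adjusted p = 0.0328).

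Of 12 other interferon gamma targets 5 rose over vehicle of day 14, against 2.26% of all tested genes, with a median of 1.18. The mean level of the 12 was 9.90, 9.55 and 8.73 in vehicle of days 1, 7 and 14. Under BXCL701 on day 14 their group means were 9.57 to 10.38, around the vehicle level of day 1. Ciita, the transactivator of MHC class II genes, was 6.68, 5.27 and 8.51 in vehicle of day 14 and rose by 2.08 ± 0.43 (SE, adjusted p = 0.00948, limma). Nlrc5, its counterpart for class I genes, rose by 1.47 ± 0.27 (adjusted p = 0.00383, limma). Cxcl9, a chemokine for CXCR3-bearing lymphocytes, rose by 1.91 ± 0.48 (adjusted p = 0.0238, limma), the peptide transporter gene Tap1 by 1.20 ± 0.33 (adjusted p = 0.0349) and B2m, the light chain of class I molecules, by 0.84 ± 0.20 (adjusted p = 0.0171). At 0 h of days 7 and 14, Ciita (1.60), Nlrc5 (1.09), Gbp8 (1.59), Irf8 (0.89) and Stat2 (0.88) passed. Their values lay just under the threshold (limma, adjusted p = 0.0407 to 0.04998). Ciita and Nlrc5 are from the list of 12 targets, Gbp8 is from the GBP list, and Irf8 and Stat2 are from the signalling lists. Of the 8 tested IRG-like genes 0 passed, and of all tested genes 0.512% passed in either direction.

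The LC3 conjugation machinery guides IRGs and GBPs to vacuoles. Of its 10 genes 0 rose on day 14 and 1 fell, against 2.26% and 1.03% of all tested genes, and the median was -0.10. The gene that fell was Gabarapl2, an LC3 relative, at -0.43 ± 0.12 (SE, adjusted p = 0.0336, limma).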

How the data were processed

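RNA of 42 subcutaneous Pan02 tumours was sequenced. The submitters' processing notes name Bowtie 0.12.9, Trimmomatic 0.36 and the build GRCm38. For the counting tool, the annotation and the scaling, nothing is stated in the sources used here. The authors deposited a gene table whose signal values are not whole numbers, and they were taken as estimated reads scaled per library. The planned count model was therefore not used, and limma took its place. The authors also deposited log2 FPKM values, used for levels between genes and as an alternative, with 0.1 FPKM as pseudocount. Another deposited table held the same values (largest difference 0). The number of columns of no listed sample was 0.

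Values were transformed as log2(value + 1), so fold changes are on that scale and understate changes of low genes. The filter kept genes that reached 10 in 3 or more libraries. limma 3.58.1 in R 4.3.3, with its trend and robust options, fitted 14 group coefficients over 42 libraries, leaving 28 residual degrees of freedom. P-values were Benjamini-Hochberg adjusted over 16613 genes within each of 27 comparisons. The fit was tested on simulated data.

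The members and the 18 gene lists (149 genes) were chosen with earlier results of these data known. Named were the 7 members, listed pathway genes that passed on day 14 or at 0 h, the ligand, receptors, kinases and factors of interferon gamma signalling (a gene is not reported here), the 10 genes most like the members, and up to 5 marker genes. Further marker genes that are named, and Ifnb1, were chosen after their values were seen. The like genes have the highest Pearson r to the mean standardized log2 value of the members. Members that overlap or share sequence were not recounted. No pair of libraries was near-identical (correlations 0.871 to 0.981). Alternatives were median-of-ratios factors, no filter, a pseudocount of 5, the FPKM table, covariates, fewer libraries and leaving out each library. Positions are from GENCODE M21 (47310 of 47729 identifiers found). Python 3.11.15 with Biopython 1.88 and matplotlib 3.10.9 was used for sequences and plots.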

Additional observations from a re-analysis of the deposited data

How the results depend on the processing

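The count of 5 IRG transcripts on day 14 became 0 with the T cell level as a covariate, 0 with only the groups of the comparison, 0 against vehicle tumours of days 1 and 7 and 0 against vehicle tumours of all 3 days, and leaving out each library gave 0 to 6. The control tumours, the T cell covariate and leaving out the 4 libraries of extreme transcript-length index (a slope of gene deviations on transcript length) were chosen after seeing the data. The call on Igtp was lost in 19 of its 27 alternatives, and those on Irgm2, Iigp1, Tgtp1 and Tgtp2 in 5 or 6 of 27. With the macrophage level, and with muscle, keratinocyte and adipocyte levels, the count was 4 each, though not of the same 4 members. Adjusted for the transcript-length index, 7 of 7 passed on day 14. Over all genes, 547 passed (376 higher). That count was 2967 (1292 higher) with the transcript-length index, 1698 (976 higher) with the macrophage level, 1018 (564 higher) without the 4 libraries, 125 (88 higher) against vehicle of all days, 26 (18 higher) against vehicle of days 1 and 7, 8 (5 higher) with the T cell level and 1 (1 higher) with only the groups of the comparison. It was 687 (547 higher) with the FPKM table.

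In the other comparisons the count was 0 as reported. It was 1 with the transcript-length index for 0 h of days 7 and 14, 5 with that index for day 14 0 h, and 1 with the macrophage level for day 14 8 h. For day 14 16 h it was 2 with median-of-ratios factors, 4 with the FPKM table and 5 with the transcript-length index. For BXCL701 day 7 against day 1 it was 6 with that index, 6 with the macrophage level and 3 with only the groups of the comparison, and for day 14 against day 1 it was 1 with the T cell level. Leaving out each library gave 0 to 2 at 0 h of days 7 and 14, 0 to 1 at day 14 0 h, 0 to 1 at day 14 8 h, 0 to 5 at day 14 16 h, 0 to 1 for vehicle day 14 against day 1, and 0 to 7 for BXCL701 day 7 against day 1. The cause of these changes was not tested. Vehicle day 14 replicate 3 was the library left out for the highest counts at day 14 0 h, day 14 8 h, 0 h of days 7 and 14, and vehicle day 14 against day 1. At day 14 16 h the count was 5 without that library and also 5 without BXCL701 day 14 16 h replicate 2. BXCL701 day 7 against day 1 gave 7, 2 and 3 without BXCL701 day 1 16 h replicate 1, day 1 16 h replicate 2 and day 7 16 h replicate 3. The other 19 of 27 comparisons kept their count in every setting. Differences of single members were recomputed for 5 comparisons (BXCL701 against vehicle on day 14, on day 7, at 0 h of days 7 and 14, at day 14 0 h and at day 14 16 h), and all 742 values kept their sign. No paired analysis was possible because the replicate numbers follow the order of the records and pair nothing across groups. No counting interval is given, since true read depths are unknown.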
